A study of Mus musculus with 21 samples.

Results

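The genes described here make, load and receive the inhibitory transmitter GABA: the glutamate decarboxylases Gad1 and Gad2, the vesicular GABA transporter Slc32a1, and 4 subunits of the GABA-A receptor, Gabra2, Gabra5, Gabrb2 and Gabrd. They were taken by symbol from the gene count table of a bulk RNAseq experiment on mouse brain, labelled neocortex, where they are 7 of 48474 rows, and each was compared between genotypes over all 21 mice with batch as a covariate. All 7 were among the 18248 genes that passed the filter on low counts. The 11 WT mice were monogenic littermates, 4 in batch A and 7 in batch B. The 10 TG mice, 3 in batch A and 7 in batch B, were bigenic rNLS8 mice, in which the neurofilament heavy chain promoter (NEFH-tTA line 8) drives a tetracycline transactivator and this in turn a human TDP-43 without its nuclear localization signal (tetO-hTDP-43ΔNLS line 4), almost only in neurons. Every mouse of both genotypes was 17 to 19 weeks old and received 350 µg of a non-targeting antisense oligonucleotide into the cerebral ventricle, was kept on doxycycline diet (200 mg/kg), which holds the transgene off, until 2 weeks after the injection, and was collected 3 weeks after the change to chow without doxycycline. The values therefore describe mice with induced transgene and control oligonucleotide against mice with the same oligonucleotide and diet, and the labels do not give the sex of a mouse. The labels name the batches A and B and say no more of them. They give the tissue as neocortex, whereas the study names brain cortex in its methods and hippocampus elsewhere for rNLS8 mice.

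GABA is made from glutamate by decarboxylation, in cortex almost only in interneurons, and is packed into synaptic vesicles by the transporter that Slc32a1 encodes. It opens GABA-A receptors, chloride channels that usually combine alpha, beta and gamma or delta subunits, and acts more slowly through GABA-B receptors, which couple to G proteins. Which alpha, beta or delta subunit a GABA-A receptor holds sets whether it sits at synapses or outside them and how it responds to drugs, and principal neurons express most of these subunits, so the synthesis genes and the receptor genes largely mark different cells.

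The 3 genes of GABA synthesis and vesicular loading lie apart from each other on chromosome 2, and the 4 receptor genes on 4 other chromosomes (GRCm38, positions from RefSeq and strands from GENCODE M21). Gad1 covers chr2:70561303-70602014 and Gad2 chr2:22621015-22693877, both on the plus strand. Slc32a1, the most compact of the 3, covers chr2:158607260-158615747 on the plus strand. Gabra2 covers chr5:70958392-71095849 and Gabra5 chr7:57407669-57591016, both on the minus strand, and both lie in clusters of subunit genes less than 1 Mb from their neighbours. Gabrb2 covers chr11:42419515-42632591 on the plus strand in another such cluster, while Gabrd, at chr4:155384979-155398098 on the minus strand, had no other subunit gene within that distance. By annotation the start of Gad1 overlaps the antisense gene Gad1os by 2055 bases, Gabra4 overlaps Gabrb1, on the opposite strand, by 388 bases, and the annotation of Gabra5 also has an overlap on the opposite strand. Whether the counting used strand is not given in the sources used here, so reads from these overlaps cannot be assigned with certainty.

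The promoters of the 4 genes that were lower in TG mice (values below) are shown because these genes moved in the same direction. RefSeq (GRCm38.p6) held a promoter for 6 of the 7 genes, Gabrd being the exception. Each sequence runs 5′ to 3′ on the strand of the gene from 250 bases before to 50 bases after a start site, at chr2:70561879-70562178 (Gad1), chr2:22622077-22622376 (Gad2) and chr2:158610508-158610807 (Slc32a1) on the plus strand and chr7:57510010-57510309 (Gabra5) on the minus strand. All 4 windows lie inside the gene spans given above, that of Gabra5 farthest from the 5′ end, so they need not be the only promoters of these genes. Capitals mark the matches to the 5 motifs searched on both strands, the TATA box TATAAA, the CCAAT box CCAAT, the GC box GGGCGG, the homeodomain core TAATTA and the cyclic AMP response element TGACGTCA.
Gad1: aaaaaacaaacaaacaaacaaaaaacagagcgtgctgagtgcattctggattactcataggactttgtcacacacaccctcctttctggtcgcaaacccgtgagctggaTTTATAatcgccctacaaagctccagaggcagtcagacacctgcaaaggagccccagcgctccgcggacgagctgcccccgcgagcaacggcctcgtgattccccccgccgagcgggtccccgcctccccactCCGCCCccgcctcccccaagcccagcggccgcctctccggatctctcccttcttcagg
Gad2: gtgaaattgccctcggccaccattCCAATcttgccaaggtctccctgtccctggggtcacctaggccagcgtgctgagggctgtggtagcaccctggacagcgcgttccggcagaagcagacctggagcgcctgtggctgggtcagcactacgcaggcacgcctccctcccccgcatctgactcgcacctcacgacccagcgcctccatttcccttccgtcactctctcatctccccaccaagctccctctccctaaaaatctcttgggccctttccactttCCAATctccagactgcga
Slc32a1: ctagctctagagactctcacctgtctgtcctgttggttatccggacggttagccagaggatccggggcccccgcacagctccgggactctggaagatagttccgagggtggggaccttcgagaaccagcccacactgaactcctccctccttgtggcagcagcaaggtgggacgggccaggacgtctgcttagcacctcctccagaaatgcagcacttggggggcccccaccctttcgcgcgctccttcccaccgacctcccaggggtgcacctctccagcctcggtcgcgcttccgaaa
Gabra5: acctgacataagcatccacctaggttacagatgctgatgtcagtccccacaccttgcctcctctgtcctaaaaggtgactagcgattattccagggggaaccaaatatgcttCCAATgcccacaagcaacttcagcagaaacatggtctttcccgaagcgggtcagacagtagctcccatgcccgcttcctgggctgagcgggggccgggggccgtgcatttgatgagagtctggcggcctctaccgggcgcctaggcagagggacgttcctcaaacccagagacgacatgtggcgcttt
No motif was found in all 4 promoters. Gad1 held TATAAA on the minus strand at -141 from the start site and GGGCGG on the minus strand at -8, letters that 13.6% and 35.7% of all 32851 promoters in the table held somewhere. Gad2 held CCAAT at -226 and at 32, and Gabra5 held it at -138, against 37.4% of all promoters. The Slc32a1 window held none of the 5 motifs, and neither TAATTA (5.29% of all promoters) nor TGACGTCA (1.79%) was found in any promoter of the 6 genes. In base composition the 4 promoters were 60.0%, 61.3%, 63.3% and 56.7% G and C in the order shown, above the median of 52.7% over all promoters. The quartiles over all promoters were 45.7% and 61.7%, so only Slc32a1 was above the upper one.

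Gad1, Gad2 and Slc32a1 fell in TG mice, as did Gabra5, while Gabra2, Gabrb2 and Gabrd did not pass the test. Gad1 fell by 26.8%, Gabra5 fell by 23.3%, Slc32a1 fell by 21.4% and Gad2 fell by 20.0%, and no member rose, where 23.0% of all tested genes did. With 4 of 7 members lower in TG mice at an adjusted p under 0.05, the background is that 21.7% of all tested genes were lower and 44.7% changed in either direction (8154 of 18248). The median log2 fold change of the 7 genes was -0.32, that of all tested genes -0.00068. Scaling mattered for this count. With library sizes only, without TMM factors, 2 members were called, and the share of lower genes among all calls moved from 48.6% to 32.1%. In bulk tissue, fewer cells of a type and less RNA per cell cannot be told apart, and labels do not name litters, so the p-values measure the spread between these mice. Total counts were between 20700912 and 22263809 per mouse, and the lowest read count of any of the 7 genes in a mouse was 578 (Gabra2).

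Gad1 encodes GAD67, the decarboxylase found throughout the interneuron. Its normalised read count (counts scaled to a common effective library size) was lowest at 5114, 7367 at the median and highest at 9015 in the 11 WT mice, and 3497, 5527 and 6761 in the 10 TG mice. The groups overlapped, but every TG mouse was below the WT median and 3 were below every WT mouse. The mean was 7241 ± 1330 (SD, n = 11) in WT and 5423 ± 1030 (SD, n = 10) in TG mice. The log2 fold change was -0.45 (SE 0.0757), with an adjusted p of 3.05e-05 in edgeR's quasi-likelihood test with Benjamini-Hochberg adjustment. In all 21 fits that left out 1 mouse each, it stayed between -0.48 and -0.41 and past the threshold. A row for the pseudogene Gad1-ps, from which reads may be exchanged with Gad1, had a mean of 97.8 normalised reads in WT and 77.2 in TG mice.

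Gad2 encodes GAD65, the decarboxylase attached to synaptic vesicles. Counts ran from 2387 through a median of 3515 to 5849 in WT mice and from 1869 through 3135 to 4548 in TG mice. The groups overlapped widely, with 2 TG mice below every WT mouse and 8 below the WT median. The log2 fold change was -0.32 (SE 0.127, adjusted p = 0.0413 in edgeR's quasi-likelihood test with Benjamini-Hochberg adjustment), the least secure of the 4 calls. It was lost in 11 of the 21 fits that left out 1 mouse, namely without the WT mouse T_69523, T_69527, T61333 or T61334 or the TG mouse T_69524, T_69526, T_70252, T_70261, T_70263, T60303 or T61340. In these 21 fits the log2 fold change was between -0.38 and -0.25 and the adjusted p of edgeR reached 0.0977. The call was also lost with DESeq2 (log2 fold change -0.32, adjusted p = 0.055). The count of Gad2 relative to Gad1 was 0.508 ± 0.0859 (SD, n = 11) in WT and 0.563 ± 0.0769 (SD, n = 10) in TG mice, and these ranges overlapped.

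Slc32a1, the transporter that loads GABA and glycine into vesicles, ran from 1601 through 2214 to 3480 in WT mice and from 1261 through 1839 to 2259 in TG mice. The groups overlapped, with a wider spread among WT than among TG mice. In total 9 of 10 TG mice were below the WT median and 2 below every WT mouse. The log2 fold change was -0.35 (SE 0.117, adjusted p = 0.0176 in edgeR's quasi-likelihood test with Benjamini-Hochberg adjustment). It was not past the threshold with library sizes only (adjusted p = 0.0568).

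Among the receptor subunits, Gabra5 encodes an alpha subunit best known from receptors outside synapses that carry tonic inhibition. Its counts were 829.9 at the lowest, 1147 at the median and 1406 at the highest in WT mice, and 645.5, 850.4 and 1115 in TG mice. Every TG mouse was below the WT median, and 3 were below every WT mouse. The log2 fold change was -0.38 (SE 0.0908, adjusted p = 0.0013 in edgeR's quasi-likelihood test with Benjamini-Hochberg adjustment), and it stayed between -0.43 and -0.34 and past the threshold in all fits that left out 1 mouse.

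Gabra2 encodes an alpha subunit of synaptic receptors, prominent at the axon initial segment. Counts ran from 691.2 through 805.3 to 942.0 in WT mice and from 583.0 through 763.1 to 903.2 in TG mice. Although 4 TG mice were below every WT mouse, 2 were above the WT median, and the log2 fold change of -0.12 (SE 0.0666) did not pass edgeR's quasi-likelihood test (Benjamini-Hochberg adjusted p = 0.149).

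Gabrb2 encodes a beta subunit of common synaptic receptors. WT mice ran from 4558 through 5953 to 7110 and TG mice from 3382 through 5735 to 6334. Only 6 of 10 TG mice were below the WT median. The log2 fold change was -0.15 (SE 0.0733, adjusted p = 0.0931 in edgeR's quasi-likelihood test with Benjamini-Hochberg adjustment). It passed the threshold when the TG mouse T61342 was left out (-0.22, adjusted p = 0.00837), so 1 library decided this call.

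Gabrd encodes the delta subunit, which replaces gamma in receptors outside synapses. It was the only member with a positive log2 fold change, 0.09 (SE 0.069, adjusted p = 0.310 in edgeR's quasi-likelihood test with Benjamini-Hochberg adjustment). Counts ran from 1016 through 1377 to 1811 in WT mice and from 1202 through 1572 to 1745 in TG mice. No TG mouse was below every WT mouse and none above every WT mouse.

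None of the 7 members separated the genotypes completely. Over all tested genes the groups did not overlap for 3.80% with TG lower and for 3.85% with TG higher, so the members were near this background. The lowest TG mouse was T60303 of batch A for Gad1, Gad2, Slc32a1, Gabra5 and Gabrd, and T61340 of the same batch for Gabra2 and Gabrb2. Without both, Gad1 (-0.40), Slc32a1 (-0.33) and Gabra5 (-0.33) remained past the threshold, while Gad2 did not (log2 fold change -0.24, adjusted p = 0.174 in edgeR's quasi-likelihood test with Benjamini-Hochberg adjustment).

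**Figure D1:**
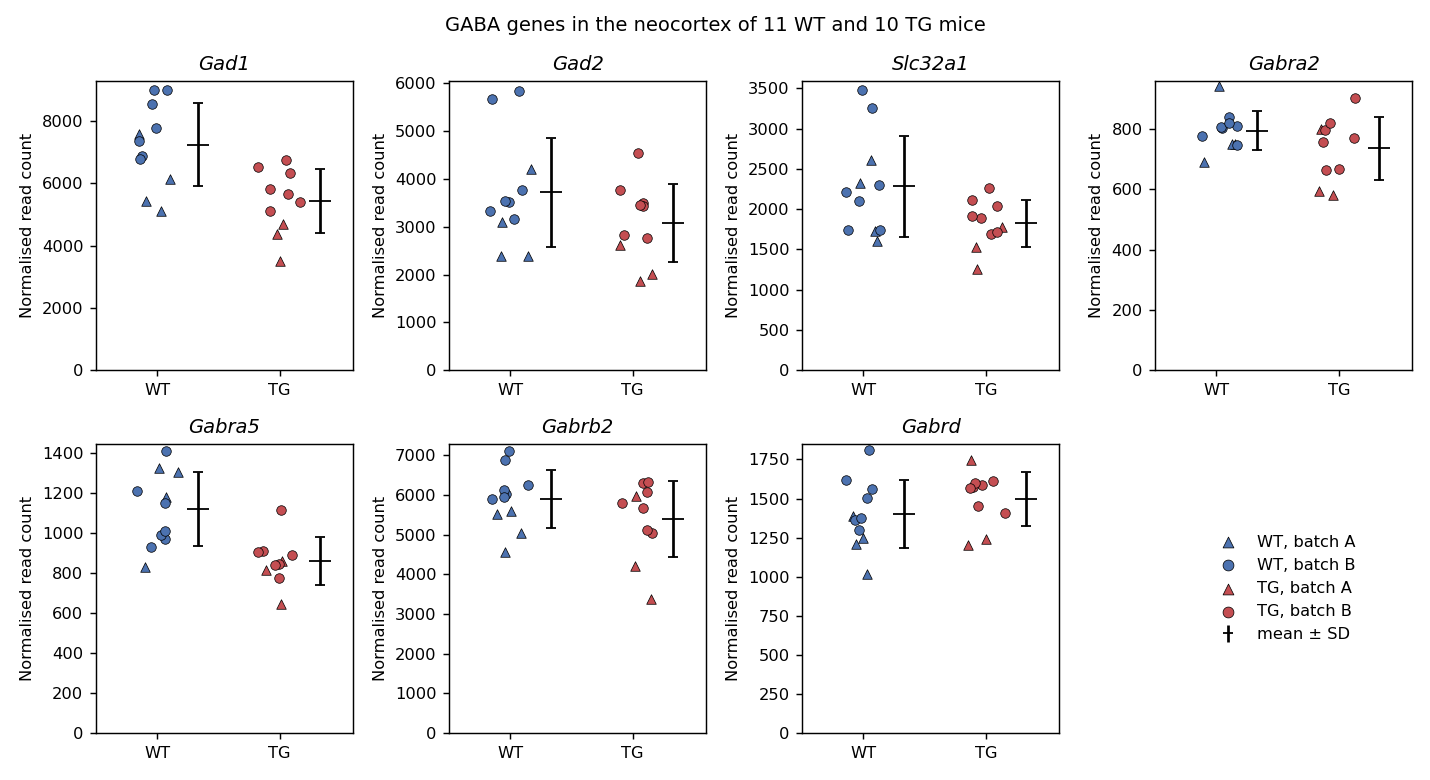
Normalised read count (vertical axes, from 0) of the 7 genes in each WT (blue) and TG (red) mouse, with batch A as triangles and batch B as circles and the mean ± SD beside each group. The groups overlap in every panel, and for Gad1 and Gabra5 all 10 TG mice lie below the WT medians of 7367 and 1147.

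The levels differed between the batches, so the genotypes were also compared within each. Gad1 averaged 6066 ± 1100 (SD, n = 4) in WT and 4189 ± 620 (SD, n = 3) in TG mice of batch A, and 7912 ± 957 (SD, n = 7) against 5952 ± 609 (SD, n = 7) in batch B. WT mice of batch A were thus near the TG mice of batch B. Within batch A the log2 fold change of Gad1 was -0.51 and within batch B -0.42, for Gad2 they were -0.45 and -0.26, and for Slc32a1 -0.41 and -0.31. All 3 had the same sign in both. For Gabra5 they were -0.56 and -0.29. For the members not called, they were -0.22 and -0.07 (Gabra2), -0.17 and -0.14 (Gabrb2) and 0.22 and 0.03 (Gabrd).

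Only in batch B did members pass the test within a batch, which is not a test of a difference between the batches. There Gad1 and Gabra5 fell (adjusted p = 2.28e-04 and 0.0155 in edgeR's quasi-likelihood test with Benjamini-Hochberg adjustment), 2 of 7 against a background of 19.8% of genes lower and 39.1% changed in either direction. In batch A none of the 7 passed, against a background of 4.83% lower and 11.8% changed in either direction, with adjusted p values of 0.054 for Gad1 and 0.0514 for Gabra5. The interaction of genotype and batch was past the threshold for no member, neither in edgeR nor in DESeq2, and its unadjusted p values were between 0.12 (Gabra5) and 0.69 (Gabrb2). Over all genes 0% passed the interaction test after adjustment and 5.64% at an unadjusted p under 0.05.

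**Figure D2:**
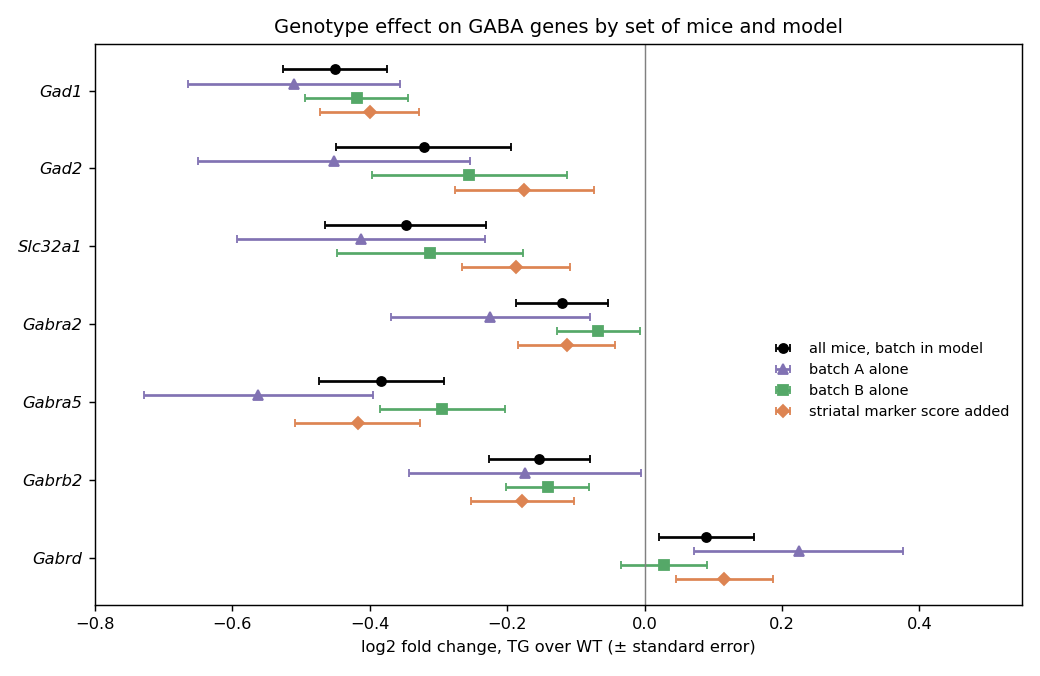
Log2 fold change of TG over WT (horizontal axis) with its standard error for each of the 7 genes, over all mice, within batch A, within batch B, and with the striatal marker score as a further covariate. Gad1, Gad2, Slc32a1 and Gabra5 lie below 0 in all 4 settings, and with the striatal score Gad2 moves from -0.32 to -0.18 and Slc32a1 from -0.35 to -0.19.

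Striatal projection neurons also use GABA and lie directly below the cortex, so their markers were set beside these values. The summed level of 8 striatal markers, among them Drd1, Drd2, Adora2a, Ppp1r1b and Penk, ranged from 319.8 to 1895 CPM in WT mice and from 285.2 to 1446 CPM in TG mice, a 6.65-fold range over all mice, and none of the 8 was at 0. Of these markers 3 of 8 were lower in TG mice, among them the enkephalin precursor Penk (log2 fold change -1.08) and the dopamine receptor Drd1 (-0.66, not past the threshold in 9 of the 21 fits that left out 1 mouse), and 5 did not pass the test. These calls stand against 21.7% of all tested genes lower and 44.7% changed in either direction. The mouse with the lowest sum was T60303, also the lowest for Gad1, Gad2, Slc32a1 and Gabra5 among the TG mice.

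The mean log2 CPM of these markers, the striatal score, went up with Gad2 and Slc32a1 among mice of 1 genotype. Over 11 WT mice Pearson's r with Slc32a1 was 0.845 (permutation p = 0.00086, adjusted over the 14 relations of 7 genes and 2 genotypes 0.012) and Spearman's rho 0.945 (adjusted permutation p = 0.00112). It was 0.788 without the 2 mice farthest from the median score and 0.92 within the 7 WT mice of batch B. For Gad2 in WT mice r was 0.777 (adjusted permutation p = 0.0204) and rho 0.718 (adjusted permutation p = 0.0808), with an r of 0.588 without the farthest 2 mice and 0.909 in batch B. Batch A alone, with 4 WT and 3 TG mice, is too small for a correlation.

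In the 10 TG mice the relations were less steady, since the TG mice of batch A had lower scores than all TG mice of batch B. For Slc32a1 r was 0.849 (adjusted permutation p = 0.0143) and rho 0.636 (adjusted permutation p = 0.153), with 0.535 without the farthest 2 mice and 0.472 in batch B. For Gad2 r was 0.804 (adjusted permutation p = 0.0204) and rho 0.745 (adjusted permutation p = 0.0808), with 0.763 and 0.569. For Gad1 r was 0.783 (adjusted permutation p = 0.0221) and rho 0.515 (adjusted permutation p = 0.235), but 0.0487 within batch B, so this relation did not hold within the batch. In WT mice Gad1 did not pass (r = 0.598, adjusted permutation p = 0.088). Gabra5 had an r of -0.642 in WT mice and 0.495 in TG mice (adjusted permutation p = 0.0621 and 0.227), and the other subunits did not pass either.

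With the striatal score as a further covariate, a setting chosen after seeing the data, Gad1 (-0.40, adjusted p = 8.84e-05) and Gabra5 (-0.42, adjusted p = 6.4e-04) remained past the threshold in edgeR's quasi-likelihood test with Benjamini-Hochberg adjustment, while Gad2 (-0.18, adjusted p = 0.167) and Slc32a1 (-0.19, adjusted p = 0.0561) did not. Since 3 of the markers differed between the genotypes themselves, the fit was repeated with a score of the 5 others, which left Slc32a1 past the threshold (-0.26, adjusted p = 0.00941) and Gad2 outside it (-0.24, adjusted p = 0.0535). How far striatal tissue in the samples takes part in the falls of Gad2 and Slc32a1 was not tested beyond these fits.

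**Figure D3:**
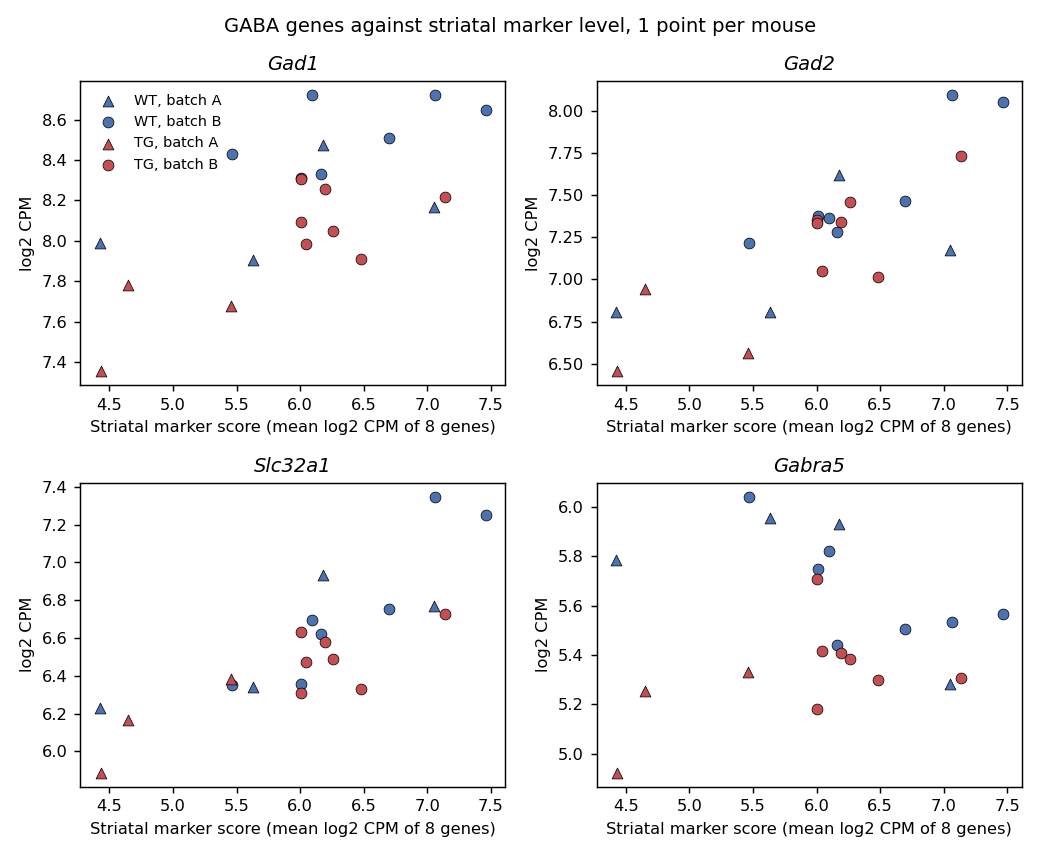
Log2 CPM of Gad1, Gad2, Slc32a1 and Gabra5 (vertical axes) against the striatal marker score (horizontal axes, mean log2 CPM of 8 genes), 1 point per mouse, by genotype (colour) and batch (shape). Slc32a1 climbs with the score (r = 0.845 in WT and 0.849 in TG mice), and Gabra5 does not (r = -0.642 and 0.495).

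Markers of cortical interneurons moved unevenly beside the synthesis genes. Of 8 transcription factors of interneuron identity, none was lower and 1, Npas1, was higher (log2 fold change 0.28), and their summed level was 88.94 to 112.6 CPM in WT and 91.26 to 108.4 CPM in TG mice. Of 8 markers of interneuron classes 6 were lower and 2 did not pass, where 21.7% of all tested genes were lower. These included Lamp5 (-1.48), the tachykinin precursor Tac1 (-0.98) and neuropeptide Y, Npy (-0.58). Lamp5 is a lysosomal membrane protein of neurogliaform cells that some excitatory neurons also express. The summed level of the 8 was 487.3 to 578.9 CPM in WT and 290 to 411 CPM in TG mice. Lamp5 weighs heavily in this sum, with a mean of 3147 normalised reads in WT and 1129 in TG mice. The median log2 fold change of the 8 was -0.31, and the one nearest to no change was -0.16. Tac1 had the same lowest and highest mouse in each genotype as the striatal markers Drd1 and Penk, so its fall may not concern cortical interneurons alone, which was not tested. No marker of either list was at 0 in all mice, and their part in the falls of Gad1, Gad2 and Slc32a1 was not tested.

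Other cell types of the tissue were followed in the same way, and their counts stand against the same 21.7% of all tested genes lower and 23.0% higher. Excitatory cortical markers summed to 2375 to 3263 CPM in WT and 1989 to 3418 CPM in TG mice, with 2 of 7 higher and 2 lower, the lower ones being Nrgn (-0.72) and Neurod6 (-0.28). Whether these sums tell neocortex from hippocampus was not tested. All 5 astrocyte markers were lower, among them Slc1a2 (-0.32), Gja1 (-0.27) and Aqp4 (-0.26), with sums of 3911 to 5208 CPM in WT and 2882 to 4174 CPM in TG mice. Of 5 microglial markers 3 were higher, including Tmem119 (0.18), and P2ry12 was lower (-0.35). Oligodendrocyte markers had 0 of 5 past the threshold, endothelial markers 1 of 5 (Flt1, -0.175), hippocampal markers 1 of 5 tested (Spink8, -1.08) and thalamic markers 1 of 5 (Slc17a6, -0.74). The hippocampal sum spanned 3.32-fold and the thalamic sum 6.8-fold over the mice, from low levels of 24.61 and 31.75 CPM. Their part in the results for the 7 genes was not tested.

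To compare levels between genes, counts were divided by the length of all annotated exons. In WT mice Gad1 was at 947.8 ± 174 normalised reads per kb (SD, n = 11), Gabrb2 at 928.6 ± 115, Slc32a1 at 816.1 ± 223, Gad2 at 632.9 ± 194, Gabrd at 486.8 ± 75.6, Gabra5 at 375.4 ± 62.3 and Gabra2 at 104.0 ± 8.5. Neighbours in this order overlapped in range, except Gabra5 and Gabra2, whose ranges were apart. In TG mice the ranges of Gabrd and Gabra5 were apart too. With the longest transcript as the length, Gad1 was at 2011, Gabrb2 at 1481 and Gabra2 at 135.8 reads per kb, and the order of the 7 did not change. Gabra2 was thus the least abundant member by either length.

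**Figure D4:**
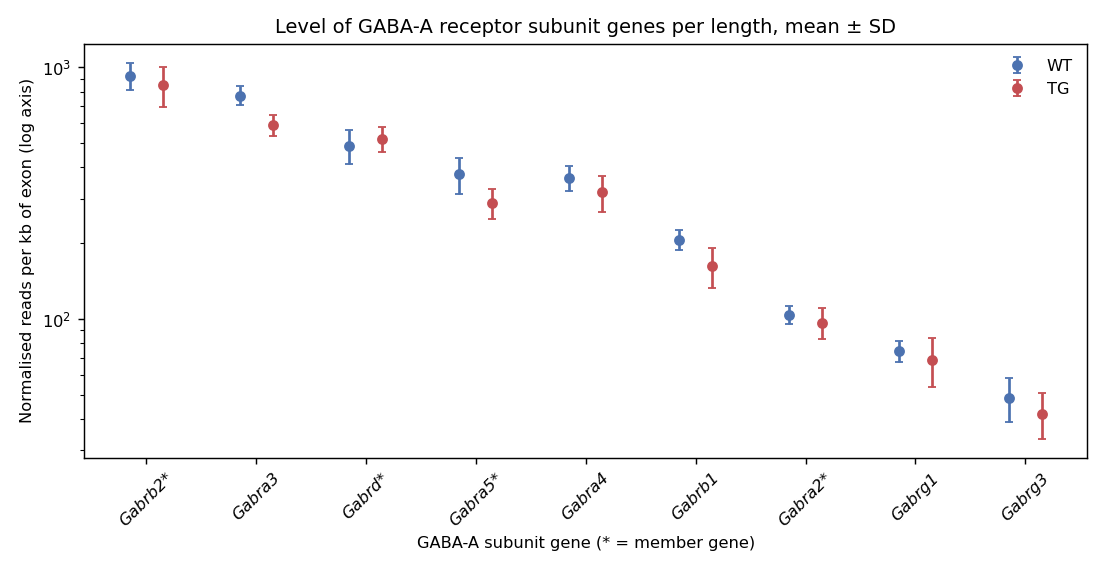
Normalised reads per kb of exon (vertical log axis) of GABA-A subunit genes above 40 reads per kb in both genotypes, mean ± SD over 11 WT and 10 TG mice, with asterisks on the 4 subunits described in detail. In WT mice Gabrb2 lies at 928.6 and Gabrg3, the lowest shown, at 48.4 reads per kb, and the TG mean is below the WT mean for each gene shown except Gabrd.

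The 4 receptor members belong to a family of which 15 other subunit genes were in the table, 11 of them above the filter. Of these, 5 fell in TG mice, none rose and 6 did not pass, a share of lower genes to be read against the 21.7% of all tested genes. The alpha subunit Gabra3 was at 2422 to 3335 counts in WT and 1926 to 2566 in TG mice, with 6 of 10 TG mice below every WT mouse. It fell by 24.3% (log2 fold change -0.40, adjusted p = 4.96e-07 in edgeR's quasi-likelihood test with Benjamini-Hochberg adjustment), the beta subunit Gabrb1 fell by 22.0% (-0.36) and the alpha subunit Gabra4 fell by 14.2% (-0.22).

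Of the subunits that did not pass, Gabrg3 was at -0.23 (adjusted p = 0.0508 in edgeR's quasi-likelihood test with Benjamini-Hochberg adjustment) and Gabrg1 at -0.14 (adjusted p = 0.212). The genes Gabre, Gabrq and Gabrr2 were near the filter, with mean counts of 10.9, 41.6 and 10.0 in WT mice and log2 fold changes of 0.67, 0.37 and 0.20 that did not pass. Without the TG mouse T_69531 the log2 fold change of Gabre was 0.059 and that of Gabrq 0.052. With library sizes only, a scaling that moved the median log2 fold change of all genes to 0.0757, 1 subunit gene passed as higher and 1 lost its call. The untested genes were Gabra6, Gabrp, Gabrr1 and Gabrr3.

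In the cluster on chromosome 5, of Gabrg1, Gabra2, Gabra4 and Gabrb1, 2 of 4 fell, and Gabra2 was among the others. Gabrg1, a neighbour of Gabra2 in this cluster, did not pass either, while Gabra4 and Gabrb1 fell. Over all tested genes 21.7% were lower, and differences between these 4 genes were not tested.

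As shares of the alpha subunit reads per kb, Gabra5 made up 14.2% ± 2.06 (SD, n = 11) in WT and 12.1% ± 1.42 (SD, n = 10) in TG mice and Gabra2 3.32% to 4.63% and 3.69% to 4.49%. Both overlapped between the genotypes. Among the beta subunits Gabrb2 made up 47.7% ± 2.66 in WT and 52.8% ± 1.58 in TG mice, with ranges of 43.1% to 50.8% and 50.01% to 55.1% that overlapped slightly. The share of Gabrb2 was thus higher in mean in TG mice, although Gabrb2 itself did not pass the test, and a share can grow when others in its class fall.

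Of the wider GABA pathway, 40 other genes including those 15 subunits were followed, and of 36 tested 13 were lower, 5 higher and 18 not past the threshold, with a median log2 fold change of -0.13. Over all tested genes 21.7% were lower, 23.0% higher and 44.7% called in either direction. The number of pathway calls in either direction was thus near the background. By direction, 13 were lower and 5 higher, a lean that all tested genes did not have. Of the GABA-B receptor genes, the subunit Gabbr1 (-0.17) and the auxiliary proteins Kctd8 (-0.32), Kctd12 (-0.24) and Kctd16 (-0.33) fell, and Gabbr2 did not pass (-0.02). Of the 4 plasma membrane transporters that clear GABA 1 fell, while the astrocytic Slc6a11 (-0.18, adjusted p = 0.0617 in edgeR's quasi-likelihood test), Slc6a12 (-0.33) and Slc6a13 (-0.16) did not pass. With library sizes only, the calls of Gabbr1 (-0.098), Kctd8 (-0.25) and Kctd12 (-0.16) were lost and the sign of Gabbr2 turned (0.057). In GABA breakdown, Aldh5a1, which oxidizes succinate semialdehyde, fell by 23.7% with all 10 TG mice below every WT mouse, and the transaminase Abat did not pass (-0.14, adjusted p = 0.0762 in edgeR's quasi-likelihood test).

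Upstream of GABA synthesis, of 2 genes of glutamate supply 1 fell, while the other, the glutamine transporter Slc38a1, rose (0.27). Of 10 scaffold and trafficking genes of inhibitory synapses, Iqsec3 (0.32), Slitrk3 (0.155) and Lhfpl4 (0.13) rose, 1 fell and 6 did not pass. The call of Lhfpl4 was lost in 12 of the 21 fits that left out 1 mouse. Of the chloride transporters, Slc12a5, named here after its values were seen, rose (0.11, adjusted p = 0.0446 in edgeR's quasi-likelihood test), and Slc12a2 did not pass (-0.08). Within a single batch Slc12a5 did not pass (0.22 in batch A and 0.057 in batch B).

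**Figure D5:**
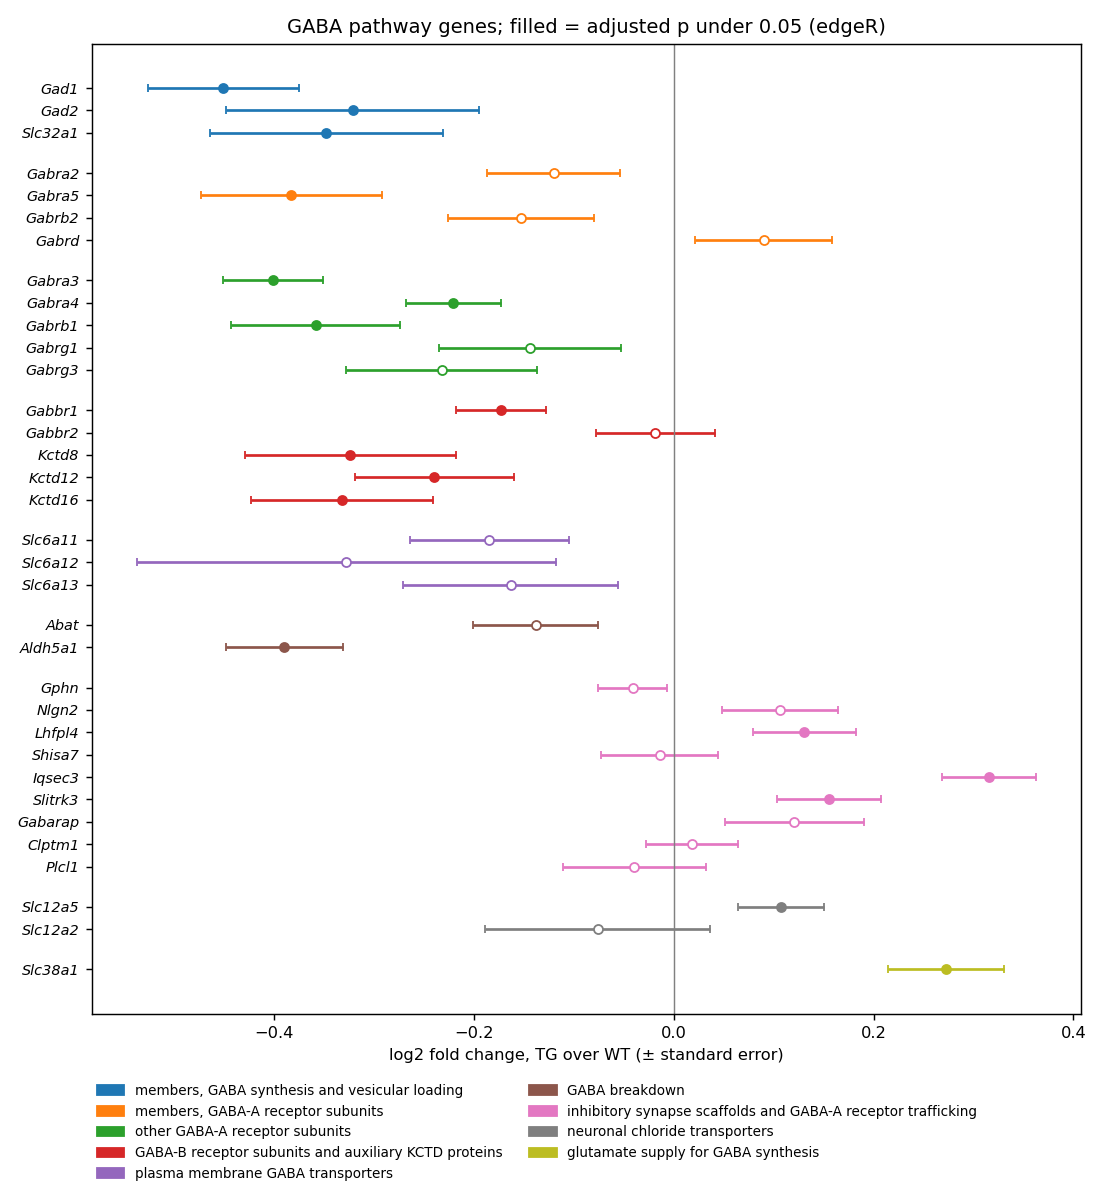
Log2 fold change of TG over WT (horizontal axis) with its standard error for the 7 members and the other tested genes of the GABA pathway, coloured by role, with filled points at an adjusted p under 0.05 in edgeR and the scarce subunits Gabre, Gabrq and Gabrr2 and genes not reported here left out. Gad1 lies farthest to the left at -0.45, and the higher genes are scaffolds, a chloride transporter and Slc38a1.

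The genes whose log2 CPM followed each member most closely across the 21 mice, after genotype and batch were removed, were taken from 14584 genes with a mean of at least 50 counts and are given as a description, since mice also share differences of library and dissection. Gad2 was nearest to Gpr149 (r = 0.936), Cacna2d2 and St8sia3, and Slc32a1 to Nrsn2 (0.949), Tmem158 and Gpr83. Gad1 was nearest to Dpp6 (0.866), Acly and Scg2. Gabra5 had the loosest match, with Rspo2 (0.833), Cbln1 and Ppp2r2b, and Gabra2 followed 2610002M06Rik (0.913), Tmx4 and Lsamp. Gabrb2 followed Zyg11b (0.962), Dennd5b and Pcm1, and Gabrd followed Stk32c-2 (0.906), a row for a further copy of that symbol, Reep2 and Them6. No member was among the 3 nearest genes of another, though some members varied together. Gad2 and Slc32a1 had an r of 0.844, Gad1 and Slc32a1 0.765, Gad1 and Gad2 0.757, and Gabra2 and Gabrb2 0.753. All other pairs of members were between -0.457 and 0.599.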

How the data were processed

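RNA of the neocortex of 21 mice was sequenced by the authors (RIN above 7, mRNA libraries, paired reads of 100 bp) and aligned to GRCm38. The submitters' processing notes also name HISAT, HISAT2, Bowtie, Bowtie2 and RSEM. The counting program, annotation and strand setting are not given in the sources used here. The values deposited by the authors are unnormalized whole counts of reads, 1 row per symbol (48474 rows). The 2553 rows of further copies, written with a suffix, held 4.11% of counts and were kept.

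The main tool was edgeR 4.0.16 (R 4.3.3). Low genes were removed with its default filter (minimum count 10, minimum total 15), and TMM factors were computed. The model held genotype and batch, and p-values of the two-sided quasi-likelihood test were adjusted by Benjamini-Hochberg over 18248 genes, at a threshold of 0.05. DESeq2 1.42.0, which the authors used, was an alternative, besides scaling, filters, batches and each mouse left out. Standard errors were derived from the F statistic. Normalised counts are counts over the effective library size times its mean. Log2 CPM used a prior count of 2, and correlations with it used 100000 permutations. Tested on simulated data for the genotype effect over 18248 genes, 192 of 200 genes changed by a log2 fold change of 1 were called, with 11 others, and for the interaction 151 of 200, with 9 others. Gene positions and promoters came from RefSeq, and strands and exon and transcript lengths from GENCODE M21.

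The genes and lists were chosen with earlier results of these data known. Named were the 7 genes, all tested GABA-A and GABA-B, transporter and breakdown genes, at most 6 called genes of the scaffold, chloride and glutamate supply lists, at most 3 called markers per list by size of change, and the 3 genes most like each member. Some genes that this rule names are not reported here, though counts and sums over lists include them.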

Additional observations from a re-analysis of the deposited data

Results flagged for a closer look

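None of the 7 members was flagged for a mouse far from the others. Among the 10 TG mice, 46 sets of values were examined, and in 7 of them the gap of the highest or lowest mouse to the nearest other, divided by the range of the group, was above the 95% critical value of Dixon's test, where chance flags about 1 in 20 groups. The 11 WT mice were not examined, since the rule covers groups of up to 10.

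The TG mouse T_69531 was far above the others for 3 genes. Its Gabre count was 87.96 against 1.95 to 27.4 in the other 9 TG mice (gap over range 0.7038), its Gabrq count 182.6 against 17.6 to 91.1 (0.5547), and its Slc6a11 count 5422 against 3424 to 4454 (0.4842). The TG mouse T60303 was the lowest for Gabbr1, with 10330 against 11920 to 13480 (0.5034). The TG mouse T_70267 was the highest for Tac1, with 722.0 against 174.8 to 466.8 (0.4664), and for Drd1, with 1126 against 200.3 to 662.5 (0.5005). The TG mouse T61340 was the highest for the excitatory marker Nrgn, with 21880 against 10120 to 14480 (0.6291).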

How the results depend on the processing

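Gad1 and Gabra5 kept their direction and call in every setting tried except batch A alone (-0.51 and -0.56). Gad2 and Slc32a1 kept their direction in every setting tried and lost the call in those below. The cause was not tested. Members called numbered 4, but 2 with library sizes only, 0 in batch A, 2 in batch B and 2 with the striatal score, and 3 to 5 when 1 mouse was left out. All genes called numbered 2195 in batch A, which holds fewer mice, and 7805 to 8363 with 1 mouse left out. Pathway genes called numbered 18, 4 in batch A, and 16 to 21 with 1 mouse left out. The call of Gad2 was lost with library sizes only (-0.25), DESeq2 with batch (-0.32), DESeq2 or edgeR with genotype only (both -0.27), batch A (-0.45), batch B (-0.26), without both T60303 and T61340 (-0.24), with the striatal score (-0.18), with its 5 uncalled markers (-0.24), and in 11 fits without 1 mouse (all 21 between -0.38 and -0.25). The call of Slc32a1 was lost with library sizes only (-0.27), in batch A (-0.41), batch B (-0.31) and with the striatal score (-0.19). Gabrb2 was between -0.22 and -0.10 with 1 mouse left out and was called without TG T61342 (-0.22).

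Signs turned for Gabrq in batch A (-0.96), and for Gabbr2 with library sizes only (0.057), in batch A (0.090), without WT T_69532 (0.00067) and without TG T60303 (0.010), with -0.046 to 0.010 over all mice left out. Interactions crossed 0 for Gad1 (-0.00074 to 0.21, WT T61334), Gabrb2 (-0.11 to 0.32, TG T61340) and Gabrd (-0.26 to 0.029, TG T61340). With 1 mouse left out, the call was lost in 12 of 21 fits for Lhfpl4 and 9 for Drd1, and gained in 8 for Gabrg3 and 3 each for Slc6a11 and Abat. No paired analysis was possible because the labels carry mouse names and no replicate numbers shared by the genotypes.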
